A study of Homo sapiens with 24 samples.

Results

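The RAB GTPases are the largest branch of the RAS superfamily of small GTP-binding proteins, and the 62 genes described here are those of the 18632 tested genes whose symbol is RAB followed by a number and at most 1 letter. They were measured on 24 arrays, 1 per well, in 2 human thyroid cell lines. Nthy-ori 3-1 is a normal thyroid follicular line immortalised with SV40, grown in RPMI medium, and TPC-1 is a papillary thyroid carcinoma line grown in DMEM, so line and medium cannot be told apart. Wells of each line received 20 nM of siRNA with a lipid carrier, either siCOPZ1, which targets COPZ1 (coatomer subunit zeta-1), or the non-targeting siNT, and were collected after 48 h or 72 h, which gave 8 groups of 3 wells. siCOPZ1 was an enzymatically cut pool of duplexes and siNT a single synthetic duplex, so COPZ1 depletion and kind of reagent cannot be told apart, and no untransfected wells are part of the comparisons. Nothing says that the wells came from separate cultures, and p-values then measure only the spread between wells.

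RAB proteins act as switches on membranes. Exchange factors load them with GTP, they then recruit effectors such as tethers, motors and coat regulators, and GTPase-activating proteins (GAPs) turn them off again. Each membrane of the secretory and endocytic routes carries its own set of RABs, and a geranylgeranyl lipid, added by a transferase that needs an escort protein, anchors them there. The COPI coat, to which COPZ1 belongs, returns cargo from the Golgi to the endoplasmic reticulum (ER) and between Golgi cisternae. Thyroid follicular cells rely on these routes to secrete thyroglobulin and to take it back up for hormone release.

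By the best known site of action, 15 of the RAB genes were placed with the ER to Golgi route and the Golgi, 16 with early and recycling endosomes, 12 with late endosomes, lysosomes and autophagy, 13 with secretion and exocytosis, and 6 with cilia or other sites. Values are log2 expression after RMA, a normalisation that brings all arrays to 1 common distribution. Of the 62 genes, 51 had a mean over the arrays of at least 5.51 and 11 were dim, that is, below this value: RAB3C, RAB6C, RAB17, RAB25, RAB33A, RAB37, RAB39A, RAB39B, RAB40A, RAB41 and RAB44. RAB6C is a near-identical retrocopy of RAB6A, and probes of such copies may share signal. RAB44 varied least over the 24 arrays, from 4.62 to 5.10, and RAB38 varied most, from 5.63 to 10.59.

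The targeted gene was low in every siCOPZ1 group. COPZ1 was at 25.8% of siNT at 48 h and 33.6% at 72 h in Nthy-ori 3-1, and at 10.5% and 22.2% in TPC-1 (limma, adjusted p = 0.000656, 0.0178, 1.03e-07 and 1.83e-06). Correlations across genes between arrays of 1 group lay between 0.971 and 0.989, and wells of TPC-1 varied more than those of Nthy-ori 3-1 (median residual SD per gene 0.250 and 0.206). The group means of PAX8, a thyroid transcription factor, were 10.03 to 10.66 in Nthy-ori 3-1 and 12.17 to 12.40 in TPC-1, while TSHR and SLC5A5, which mark differentiated thyrocytes, were dim, as were PTPRC, CD3E, PECAM1 and DCN, which mark leukocytes, endothelium and fibroblasts.

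In TPC-1 at 72 h, 16 of the 62 RAB genes (25.8%) passed an adjusted p of 0.05, 6 of them higher and 10 lower with siCOPZ1. Of all genes 14.4% passed, 7.03% higher and 7.42% lower. Among the called genes, RAB3D and RAB3B of exocytosis, RAB19 of the Golgi and RAB7B of late endosomes fell by more than 1 log2 unit, and RAB38 and RAB42 rose by more than 1. The median difference over the RAB genes was -0.01 on the log2 scale, and over all genes it was also -0.01, but the median size of the difference, whatever its sign, was 0.29 for RAB genes and 0.23 for all genes. With all dim genes left out of the fit, 19 of 51 RAB genes (37.3%) were called, 7 higher and 12 lower, against 22% of all genes. The 3 siCOPZ1 and 3 siNT values did not overlap in 29 of the 62 (46.8%), against 28.9% of all genes. In none of the 16 called genes did they overlap, which adds no support, as the calls were made on the same values. Centring each array on its median turned the split of 6 higher and 10 lower into 7 higher and 7 lower. The count was 10 without the siCOPZ1 well numbered 2 and stayed between 10 and 14 over the 6 runs that each left out 1 of these wells.

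**Figure D1:**
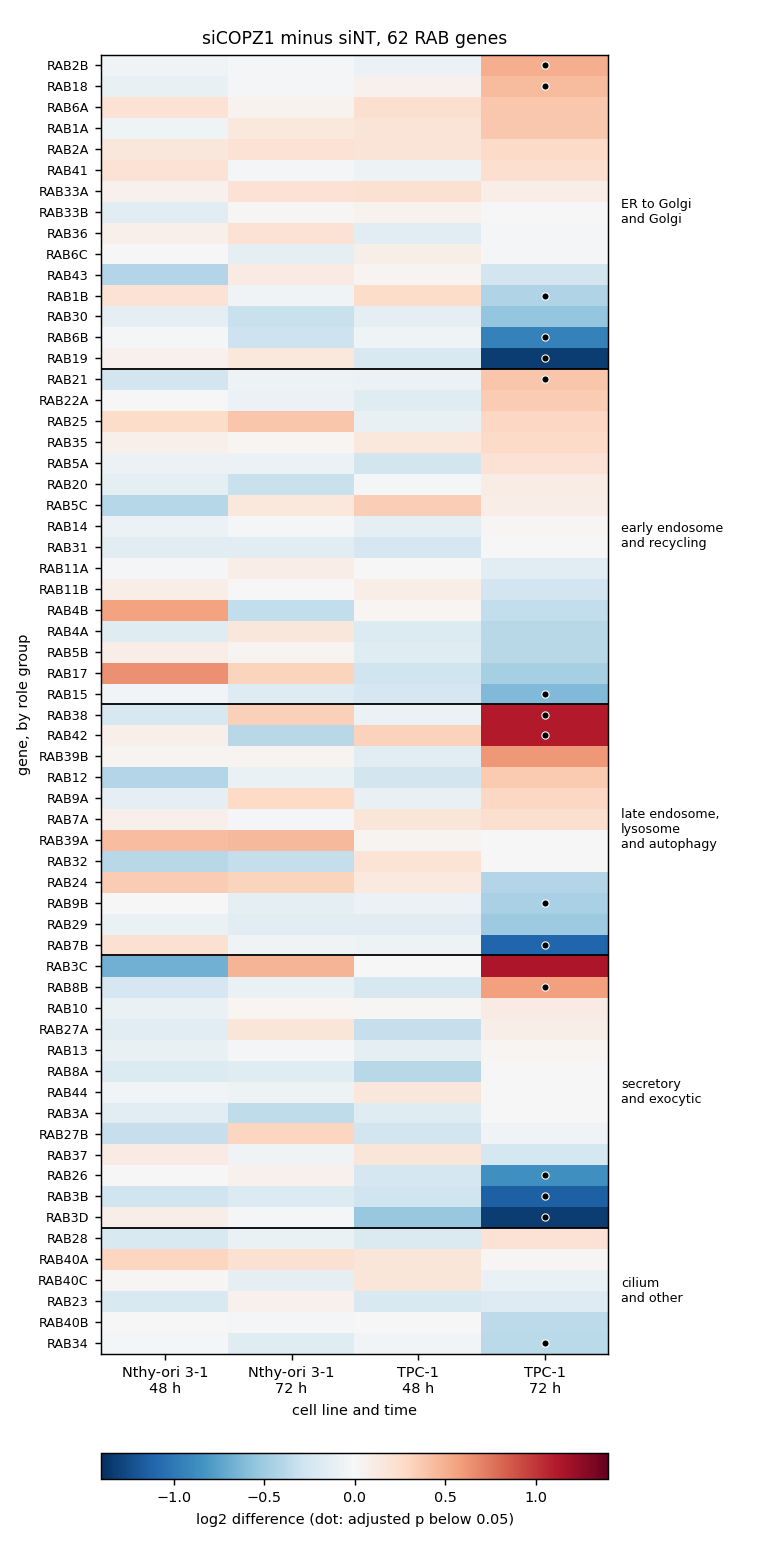
Log2 difference of siCOPZ1 minus siNT wells for each of the 62 RAB genes (rows, by role group) in each line at each time (columns), from the model over all 24 arrays. Red is higher and blue lower with siCOPZ1, and the 16 black dots, all in the TPC-1 72 h column, mark an adjusted p below 0.05.

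Of the 13 secretory RABs, 3 fell and 1 rose, while 7.42% of all genes fell and 7.03% rose. RAB3D, which sits on the secretory granules of exocrine cells, read 9.21, 9.31 and 9.20 in the siNT wells and 8.09, 7.88 and 7.75 in the siCOPZ1 wells of TPC-1 at 72 h. Every siCOPZ1 value was more than 1 log2 unit below every siNT value, a fall by 1.33 ± 0.21 (SE, n = 3 and 3; 2.52-fold lower, adjusted p = 0.000183). RAB3B, another regulator of stimulated exocytosis, read 10.91, 11.00 and 11.18 against 9.94, 9.91 and 9.81. It fell by 1.14 ± 0.20 (2.21-fold, adjusted p = 0.000624), and the groups were again well apart. RAB26, which acts on secretory granules, went from 7.52, 7.98 and 7.54 to 6.96, 6.62 and 6.89, a fall by 0.86 ± 0.18 (1.81-fold, adjusted p = 0.0026). RAB8B, which carries cargo to the plasma membrane, moved the other way, from 9.10, 8.83 and 8.80 to 9.45, 9.51 and 9.48. The 3 siCOPZ1 wells lay within 0.1 of each other and all above siNT, a rise of 0.57 ± 0.14 (1.48-fold, adjusted p = 0.00709). RAB3C, a dim member of the same subfamily, had a difference of 1.13 with a 95% interval of 0.07 to 2.19 and was not called (adjusted p = 0.156).

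Of the 15 ER and Golgi RABs, 3 fell and 2 rose, while 7.42% of all genes fell and 7.03% rose. RAB19, a little studied Golgi RAB, read 6.28, 6.84 and 6.36 with siNT and 5.19, 4.94 and 5.35 with siCOPZ1. It fell by 1.33 ± 0.18 (2.52-fold) and had the smallest adjusted p of the family, 2.76e-05. RAB6B, the isoform of the Golgi RAB6 that is enriched in neurons, went from 7.88, 7.61 and 7.40 to 6.88, 6.39 and 6.80. The wells did not overlap (fall by 0.94 ± 0.25, adjusted p = 0.0137), but the call was lost without the siNT well numbered 1 (adjusted p = 0.0635) or the siCOPZ1 well numbered 2 (0.0746).

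RAB2B, which with RAB2A tethers vesicles at the Golgi, rose from 7.91, 7.71 and 7.84 to 8.40, 8.23 and 8.36. The difference was 0.51 ± 0.12 (1.43-fold, adjusted p = 0.00493). RAB18, found on the ER and on lipid droplets, rose from 9.80, 9.83 and 9.95 to 10.15, 10.35 and 10.41, a difference of 0.45 ± 0.12 (adjusted p = 0.018). Its call was lost in 4 of the 6 runs that left out 1 well, namely siNT 1 (adjusted p = 0.0608), siNT 2 (0.0539), siCOPZ1 2 (0.064) and siCOPZ1 3 (0.0811). RAB1B, needed for transport from ER to Golgi, read 11.64, 11.76 and 11.73 against 11.30, 11.32 and 11.23, a fall by 0.43 ± 0.14 at an adjusted p of 0.0499. Without any 1 of the 6 wells its adjusted p lay between 0.072 and 0.137, and after median centring at 0.0648. Its close relative RAB1A had a difference of 0.38 ± 0.13 in the other direction and narrowly missed the threshold (adjusted p = 0.0518; 0.0358 after median centring). RAB2A differed by 0.27 and RAB6A by 0.38, and neither was called (adjusted p = 0.134 and 0.164).

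Of the 12 RABs of late endosomes, lysosomes and autophagy, 2 rose and 2 fell, while 7.03% of all genes rose and 7.42% fell. RAB38, which with RAB32 serves melanosomes and other lysosome-related organelles, read 9.22, 8.97 and 8.86 with siNT and 10.59, 9.82 and 9.99 with siCOPZ1. It rose by 1.11 ± 0.24 (2.17-fold, adjusted p = 0.00288), with the siCOPZ1 well numbered 1 highest. RAB42 rose from 6.61, 6.89 and 6.60 to 8.41, 7.68 and 7.33, by 1.11 ± 0.23 (2.15-fold, adjusted p = 0.00213). The same well was again the highest, and with the arrays numbered 1 left out of every group the RAB42 difference was 0.76 and its adjusted p 0.0902. RAB7B, which directs traffic from late endosomes to the trans-Golgi network, went from 6.24, 6.96 and 7.07 to 5.12, 5.98 and 5.86 (fall by 1.11 ± 0.23, adjusted p = 0.00233). RAB9B went from 6.84, 6.86 and 6.70 to 6.16, 6.20 and 6.67. Its fall by 0.46 ± 0.15 passed at an adjusted p of 0.0464 but was lost without siNT 1 (0.112), siNT 2 (0.121), siNT 3 (0.066), siCOPZ1 1 (0.169) or siCOPZ1 2 (0.164). RAB7A, the main RAB of late endosomes, differed by 0.22 and was not called (adjusted p = 0.16).

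Of the 16 early and recycling endosome RABs, 1 rose and 1 fell (12.5% in all), a share near that of all genes. RAB15, which restrains receptor recycling, fell from 8.36, 8.66 and 8.33 to 7.91, 7.78 and 7.80, by 0.62 ± 0.15 (1.54-fold, adjusted p = 0.00791). The siCOPZ1 wells were close together and below all siNT wells. The call was lost with the arrays numbered 1 left out (adjusted p = 0.06). RAB21, which moves integrins through early endosomes, rose from 10.53, 10.27 and 10.35 to 10.80, 10.71 and 10.80 (0.39 ± 0.12, adjusted p = 0.0365). That call was lost without siNT 2 (0.131), siNT 3 (0.104), siCOPZ1 1 (0.0885), siCOPZ1 2 (0.0615) or siCOPZ1 3 (0.0985). The general regulators of these routes, RAB5A of early endosomes and RAB11A of recycling endosomes, differed by 0.21 and -0.15, with 95% intervals of -0.07 to 0.48 and -0.39 to 0.09.

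Of the 6 remaining genes only RAB34 was called, while 14.4% of all genes were. RAB34, which takes part in cilium formation, read 9.92, 10.11 and 10.08 against 9.59, 9.57 and 9.82. Its fall by 0.37 ± 0.12 (adjusted p = 0.0352) was lost without siNT 2 (0.109), siNT 3 (0.107), siCOPZ1 1 (0.104) or siCOPZ1 2 (0.127), and after median centring (0.0653). Among uncalled RABs, RAB8A and RAB33B differed by 0.01 and -0.01 (95% intervals -0.44 to 0.45 and -0.51 to 0.49), and RAB10 and RAB27A differed by 0.11 and 0.09. The 46 uncalled genes spanned -0.54 (RAB30) to 1.13 (RAB3C).

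**Figure D2:**
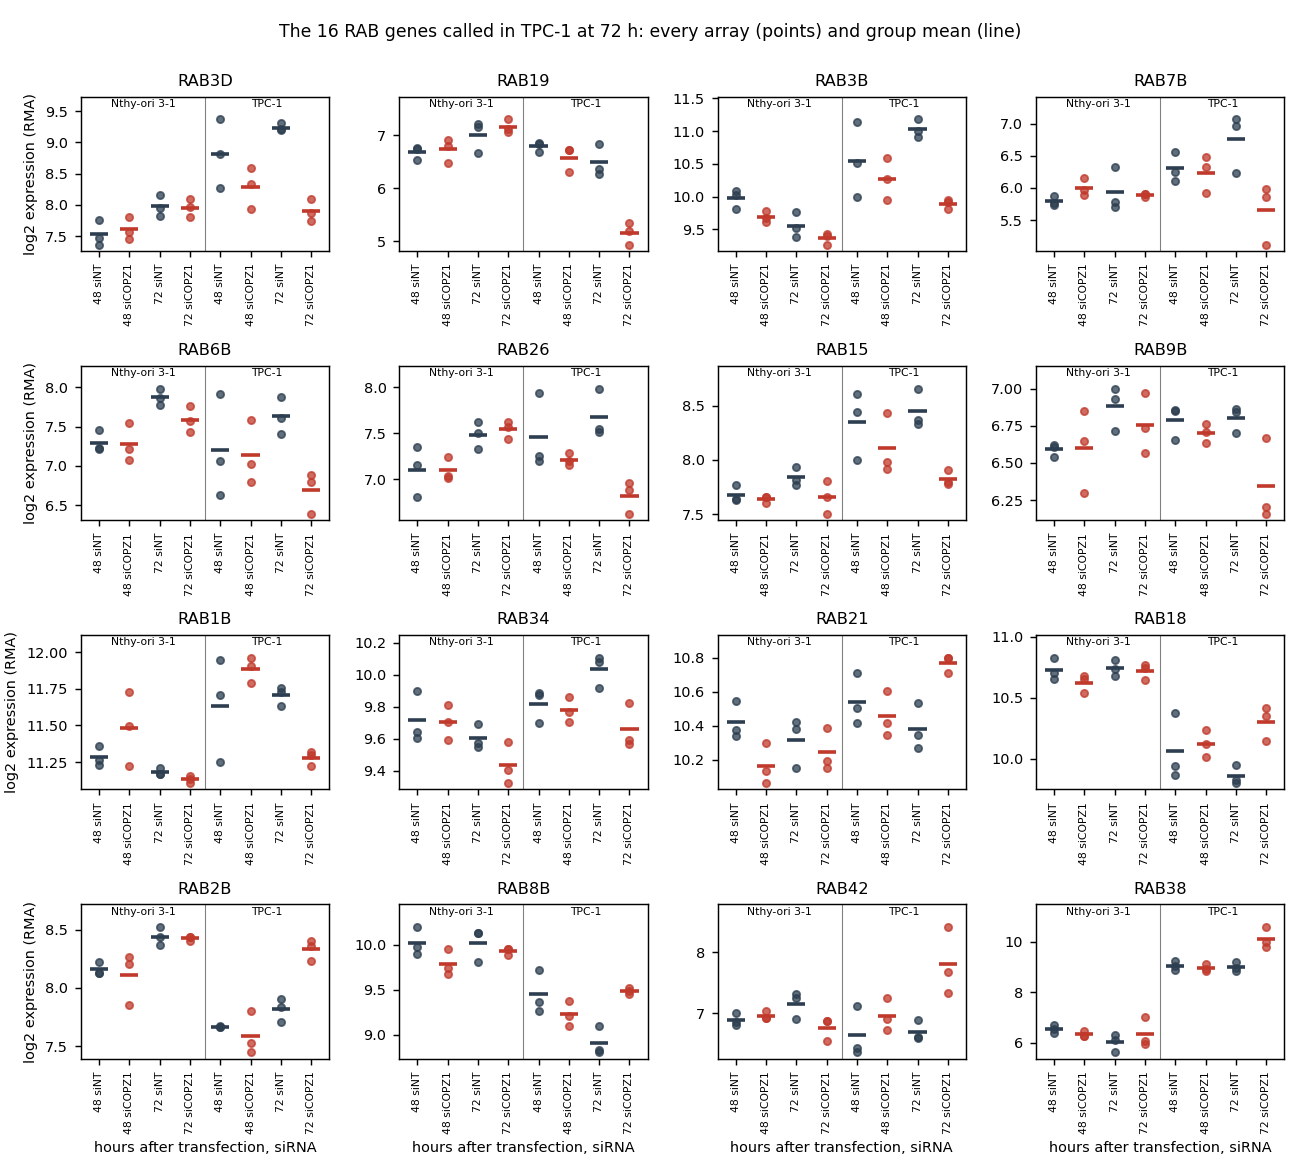
Log2 expression on every array (points) and group mean (line) of the 16 RAB genes called in TPC-1 at 72 h, ordered from the largest fall to the largest rise. Dark points are siNT and red points siCOPZ1. In the last 2 columns of each panel (TPC-1 at 72 h) the 3 red and the 3 dark points do not overlap.

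Each array averages a whole well, so less RNA per cell and fewer cells with the transcript cannot be told apart. Markers of cell state and of other cell types were read in the same wells. Of 24 measured markers, 3 were called at 72 h in TPC-1, a share no higher than the 14.4% of all genes. All 3 were lower: the thyroid factor FOXE1 (-0.90), PDGFRB of fibroblasts (-1.50) and the dim CD14 (-0.51). The sum of the log2 values of the 4 fibroblast markers was 28.9 to 29.7 in the siNT wells and 27.2 to 27.5 in the siCOPZ1 wells. Besides PDGFRB, the fibroblast markers COL1A1, LUM and DCN differed by -0.25, -0.31 and 0.13, all uncalled. The sum of the 5 epithelial markers was 29.5 to 31.2 and 28.0 to 29.1. Its largest differences were those of EPCAM (-0.88) and KRT19 (-0.69), both dim and uncalled. The sums of the 5 leukocyte and 3 endothelial markers overlapped between siNT and siCOPZ1 wells. The part of the markers in the RAB differences was not tested.

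Several genes that share a RAB number had estimates of unlike size or sign in TPC-1 at 72 h. A called gene beside an uncalled one does not show that their responses differed. Of 25 pairs of same-numbered genes, some of which share a gene, 12 had within-array differences that did not overlap between siCOPZ1 and siNT wells. The other 13 overlapped, among them RAB11A and RAB11B, RAB4A and RAB4B, RAB27A and RAB27B, and RAB33A and RAB33B. For values of single genes, an unlike measure, the share without overlap was 46.8% of RAB genes and 28.9% of all genes. No share over other pairs of genes is given, so the count is not shown to be particular to same-numbered pairs. The pairs named here were chosen after their values were seen. The within-array difference of RAB1A minus RAB1B rose by 0.81 with siCOPZ1, that of RAB6A minus RAB6B by 1.32, that of RAB7A minus RAB7B by 1.33 and that of RAB9A minus RAB9B by 0.74. In each of these pairs the B gene was called lower while the estimate of the A gene was above 0 and uncalled, and the 3 and 3 within-array differences did not overlap. The exact permutation p was 0.1 for each, the smallest that 3 against 3 wells can give. As the B genes were called and the pairs chosen on the same values, neither the lack of overlap nor this p adds support. RAB3A, the neuronal member of its subfamily, stood at -0.01 beside RAB3B at -1.14 and RAB3D at -1.33. In the RAB2 and RAB8 pairs the B gene was the called one too, but it rose.

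**Figure D3:**
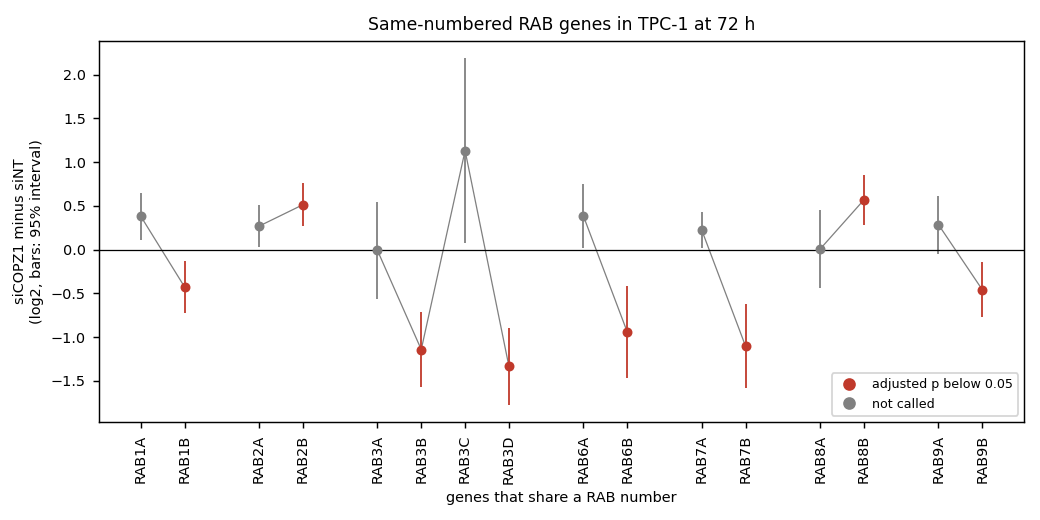
Log2 difference of siCOPZ1 minus siNT in TPC-1 at 72 h (points) with its 95% interval (bars) for RAB genes that share a number, joined by lines. Red points passed an adjusted p of 0.05. The B genes of the RAB1, RAB6, RAB7 and RAB9 pairs lie below 0 and their A genes above it.

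Promoter letters were read for the called genes. RefSeq windows of 300 bases, 250 before and 50 after the gene start, were held for 49 of the 62 RAB genes and 13 of the 16 called ones, out of 27305 genes. Searched on both strands were ACGTGGC, the core of the unfolded protein response element, CACGTG, the E-box of TFEB and MYC, TGACG, a part of the cAMP response element, and CCACG, the end of the ER stress response element, whose reverse complement lies inside ACGTGGC and whose letters can overlap the others. CCACG stood in 4 of the 5 windows of genes that rose and in 1 of 8 of genes that fell, against 28.6% of all RAB windows and 37.9% of all windows. TGACG stood in 3 of 5 and 1 of 8, against 42.9% and 25%. CACGTG was in 1 of 5 and 0 of 8 (12.2% of RAB windows, 7.43% of all), and ACGTGGC in none of these 13 (6.12% and 3.3%). These are letter matches in a fixed window and say nothing of binding, and the groups of 5 and 8 are small. Every motif holds CG, and the median GC content was 65.0% in RAB windows and 58.3% in all windows, for which the shares were not adjusted. Where a gene had several windows, as RAB2B, RAB6B, RAB7B and RAB34 did, only the first listed was read. Shown are the windows of the 3 called genes with the largest falls and the 3 with the largest rises that have one, RAB3D (chr19:11339608-11339907, - strand), RAB19 (chr7:140403808-140404107, + strand) and RAB3B (chr1:51990651-51990950, - strand) for the falls, and RAB42 (chr1:28592015-28592314, + strand), RAB8B (chr15:63189356-63189655, + strand) and RAB2B (chr14:21476910-21477209, - strand) for the rises (RefSeq, GRCh38.p14, 5′ to 3′ on the gene's strand). Capitals mark the letters of TGACG or CCACG or of their reverse complements, which stand in the windows of RAB8B and RAB2B. The windows of RAB42 and of the 3 falling genes hold none of the 4 motifs, while the window of RAB7B, which also fell, holds CCACG at 2 places.
RAB3D: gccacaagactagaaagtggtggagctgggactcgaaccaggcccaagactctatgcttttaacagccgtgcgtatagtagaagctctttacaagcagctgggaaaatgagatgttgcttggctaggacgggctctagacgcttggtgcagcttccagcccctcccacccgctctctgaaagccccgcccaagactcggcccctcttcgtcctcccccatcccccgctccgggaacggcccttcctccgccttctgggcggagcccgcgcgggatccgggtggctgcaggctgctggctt
RAB19: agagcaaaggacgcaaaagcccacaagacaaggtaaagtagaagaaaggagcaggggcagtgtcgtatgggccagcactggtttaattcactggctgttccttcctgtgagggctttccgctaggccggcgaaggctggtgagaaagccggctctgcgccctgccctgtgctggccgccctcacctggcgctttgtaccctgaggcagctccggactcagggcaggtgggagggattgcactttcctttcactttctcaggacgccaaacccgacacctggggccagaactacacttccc
RAB3B: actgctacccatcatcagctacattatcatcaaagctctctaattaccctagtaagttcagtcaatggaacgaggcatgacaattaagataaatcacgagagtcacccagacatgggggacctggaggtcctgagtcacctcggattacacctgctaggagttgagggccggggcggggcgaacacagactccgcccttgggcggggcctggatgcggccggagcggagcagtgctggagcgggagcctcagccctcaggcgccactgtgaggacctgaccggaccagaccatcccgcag
RAB42: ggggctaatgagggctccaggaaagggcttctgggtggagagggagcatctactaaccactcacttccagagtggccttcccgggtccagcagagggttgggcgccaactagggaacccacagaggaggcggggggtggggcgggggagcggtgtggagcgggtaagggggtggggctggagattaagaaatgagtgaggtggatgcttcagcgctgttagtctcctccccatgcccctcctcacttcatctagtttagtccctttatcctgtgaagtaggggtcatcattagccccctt
RAB8B: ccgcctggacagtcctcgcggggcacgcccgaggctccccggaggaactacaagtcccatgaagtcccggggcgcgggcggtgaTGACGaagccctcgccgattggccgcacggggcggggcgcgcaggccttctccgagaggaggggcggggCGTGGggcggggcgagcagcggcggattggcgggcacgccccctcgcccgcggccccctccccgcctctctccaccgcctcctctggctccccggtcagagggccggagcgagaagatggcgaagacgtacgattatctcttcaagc
RAB2B: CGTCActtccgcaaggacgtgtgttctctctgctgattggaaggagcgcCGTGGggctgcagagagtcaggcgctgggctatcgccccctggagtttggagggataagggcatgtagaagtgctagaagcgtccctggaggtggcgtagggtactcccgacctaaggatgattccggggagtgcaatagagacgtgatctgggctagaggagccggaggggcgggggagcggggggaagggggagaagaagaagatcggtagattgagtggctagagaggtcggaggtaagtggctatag

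The other genes of the RAB cycle were called in TPC-1 at 72 h at shares from 16.3% to 33.3% of each list, against 14.4% of all genes. Of 9 genes of prenylation and membrane cycling, 2 rose and 1 fell. RABGGTB, the beta subunit of the geranylgeranyl transferase, read 7.73, 8.12 and 8.04 with siNT and 8.81, 9.04 and 8.89 with siCOPZ1 (0.95, adjusted p = 0.022). Its escort protein CHM read 8.60, 7.91 and 8.26 against 9.04, 8.73 and 8.93 (0.65, adjusted p = 0.0119). All siCOPZ1 wells of both genes lay above all siNT wells. RABIF, a chaperone of exocytic RABs, went the other way by -0.59 (adjusted p = 0.0119). RABGGTB was not called without siNT 1 (0.0875), siCOPZ1 2 (0.0768) or siCOPZ1 3 (0.0547), CHM without siNT 2 (0.0801) or siCOPZ1 1 (0.0513), and RABIF without siNT 3 (0.0532) or siCOPZ1 1 (0.0735).

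Of 49 exchange factors measured, 4 rose and 4 fell (16.3%), a share close to that of all genes. DENND5A read 9.57, 9.34 and 9.40 with siNT and 10.54, 10.42 and 10.12 with siCOPZ1, a rise of 0.92 (adjusted p = 0.00202). DENND4A, an activator of RAB10, rose by 0.63 (0.00274), and DENND6B fell by 0.71 (0.00343). Of 35 genes listed as GAPs, 5 rose and 1 fell (17.1%), again near the 14.4% of all genes. Among them were TBC1D23 (0.91, adjusted p = 0.00224), TBC1D22B (0.53, 0.0044) and the dim TBC1D30 (1.33, 0.00464). A place on this list does not show that a gene, TBC1D23 included, has GAP activity. Of 48 effectors, 4 rose and 7 fell (22.9%, against 14.4% of all genes). Of those with the smallest adjusted p, RPH3AL, which binds RAB3 and RAB27, differed by -0.67 (adjusted p = 0.00733), and MLPH, the link between RAB27A and myosin Va, by -0.71 (0.0132; 0.0525 without siNT 3). ACAP2, which binds RAB35, rose by 0.49 (0.0181), a call lost without siNT 2 (0.0651), siNT 3 (0.0668) or siCOPZ1 1 (0.0969). Of 8 RAB-like genes, RABL3 and RASEF rose, by 0.62 (adjusted p = 0.0142) and 0.49 (0.0493). RABL3 was lost without siNT 1 (0.0531) or siCOPZ1 3 (0.0782), and RASEF in 5 of 6 runs, in which its adjusted p was 0.0829 (without siNT 1), 0.156 (siNT 2), 0.0759 (siNT 3), 0.199 (siCOPZ1 1) and 0.0802 (siCOPZ1 3).

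**Figure D4:**
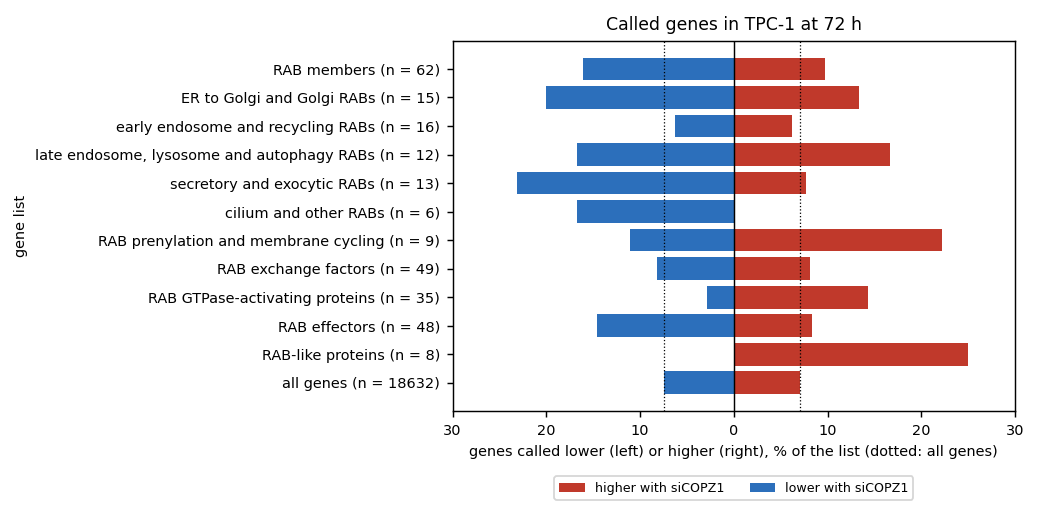
Share of each gene list called higher (red, to the right) or lower (blue, to the left) with siCOPZ1 in TPC-1 at 72 h, in % of the measured genes of the list. Dotted lines give the shares of all genes, 7.03% and 7.42%. The secretory RABs reach 23.1% on the lower side, and the RAB-like genes 25% on the higher side with 8 genes.

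At 48 h and in Nthy-ori 3-1 no RAB gene was called. In TPC-1 at 48 h 2 of 62 had an unadjusted p below 0.05, and 0.166% of all genes were called. The 2 were RAB3D and RAB27A. RAB3D differed by -0.54 ± 0.21 (adjusted p = 0.434), with 9.37, 8.27 and 8.81 in siNT and 8.34, 7.93 and 8.59 in siCOPZ1 wells, which overlapped. RAB27A differed by -0.32 (adjusted p = 0.512), and its wells did not overlap. No share of all genes without overlap is given for 48 h. In Nthy-ori 3-1, 3 RAB genes at 48 h (RAB12, RAB21 and RAB40A) and 1 at 72 h (RAB25) had an unadjusted p below 0.05, and 0.00537% of all genes, which is COPZ1 alone, were called at either time. With both times of Nthy-ori 3-1 averaged, 7 RAB genes had an unadjusted p below 0.05 and again none was called (0.00537% of all genes called). These shares of all genes are at an adjusted p below 0.05. No share of all genes at an unadjusted p below 0.05 is given, so the unadjusted counts cannot show whether RAB genes were in excess. RAB differences in that line spanned -0.67 to 0.64 at 48 h and -0.39 to 0.47 at 72 h.

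The test of whether the 72 h effect differed between the lines called 4 RAB genes (6.45%) and 4.02% of all genes. RAB19 in Nthy-ori 3-1 read 7.20, 6.67 and 7.16 with siNT and 7.30, 7.11 and 7.07 with siCOPZ1, and its effect in TPC-1 was lower by 1.48 (adjusted p = 0.00137). For RAB42 the Nthy-ori 3-1 values were 7.26, 6.91 and 7.32 against 6.87, 6.55 and 6.88, and the TPC-1 effect was higher by 1.50 (adjusted p = 0.00938; 0.143 with the arrays numbered 1 left out). For RAB3D they were 7.82, 7.95 and 8.16 against 8.09, 7.96 and 7.80, and the difference of effects was -1.31 (adjusted p = 0.014; 0.0691 with the arrays numbered 1 left out). In Nthy-ori 3-1 the wells of RAB19 and RAB3D overlapped and those of RAB42 lay just below siNT, while in TPC-1 all 3 genes had separate wells. RAB26 was called at -0.92 (adjusted p = 0.0473), but not after median centring (0.0509). That call was also lost in 10 of the 12 runs without 1 well: the Nthy-ori 3-1 siNT wells 1 (0.0827), 2 (0.111) and 3 (0.0561), its siCOPZ1 wells 1 (0.107), 2 (0.0641) and 3 (0.0924), and the TPC-1 siNT wells 2 (0.116) and 3 (0.0628) and siCOPZ1 wells 2 (0.12) and 3 (0.071). For RAB3B and RAB38 the difference between lines was -0.95 and 0.78 and was not called. At 48 h the effect differed between the lines for no RAB gene and for 0% of all genes, and no RAB gene had an unadjusted p below 0.05.

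Between the times in TPC-1, the effect on RAB19 was lower at 72 h than at 48 h by 1.12 (adjusted p = 0.0215) and that on RAB8B higher by 0.79 (0.0361), 2 of 62 genes (3.23%) against 2.04% of all genes. RAB19 read 6.69, 6.85 and 6.84 with siNT and 6.30, 6.71 and 6.72 with siCOPZ1 at 48 h. RAB8B read 9.36, 9.72 and 9.26 against 9.37, 9.21 and 9.10 at that time. Both genes thus had overlapping wells at 48 h and separate ones at 72 h. The RAB19 call was lost without the 48 h siCOPZ1 well 3 (0.0681) or the 72 h wells siNT 2 (0.0598) or siCOPZ1 2 (0.0599). The RAB8B call was lost without the 48 h wells siNT 2 (0.108), siCOPZ1 2 (0.0649) or siCOPZ1 3 (0.11), or the 72 h wells siNT 2 (0.0811), siNT 3 (0.0998), siCOPZ1 1 (0.0562), siCOPZ1 2 (0.0761) or siCOPZ1 3 (0.0691). Neither was called with the arrays numbered 1 left out (0.0631 and 0.0726).

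The lines differed in their RAB genes before any depletion. In siNT wells, taken over both times, 32 of 62 RAB genes (51.6%) were called against 44.1% of all genes. TPC-1 was higher for 20 (32.3% of RAB genes, 20% of all genes) and lower for 12 (19.4%, 24.1%). RAB39A, a dim RAB in TPC-1 that acts at phagosomes and in autophagy, read 6.68 to 7.12 in the 6 Nthy-ori 3-1 wells and 3.39 to 4.10 in the 6 TPC-1 wells. The TPC-1 values were below the dim limit of 5.51, so the measured 9.17-fold difference (adjusted p = 4.28e-12) need not be its true size. RAB38 read 5.63 to 6.72 in Nthy-ori 3-1 and 8.86 to 9.23 in TPC-1, 6.68-fold higher (adjusted p = 3.77e-11). RAB27B, which drives exosome and granule release, read 5.82 to 6.23 against 7.37 to 8.07 and was 3.01-fold higher (adjusted p = 4.37e-09). For these 3 genes no well of 1 line overlapped the other line.

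The next largest genes higher in TPC-1 were RAB3D (2.42-fold), RAB4B of fast recycling (2.24-fold), RAB3B (2.03-fold), RAB36 (1.91-fold), RAB7B (1.59-fold), RAB15 (1.56-fold), RAB11B (1.50-fold) and RAB2A (1.44-fold). RAB3D lay between 7.36 and 8.16 in Nthy-ori 3-1 and between 8.27 and 9.37 in TPC-1, and RAB3B between 9.38 and 10.08 and between 9.99 and 11.18, so RAB3B overlapped and RAB3D did not. Lower in TPC-1 were RAB23, an inhibitor of Hedgehog signalling (1.86-fold), RAB8B (1.79-fold), RAB18 (1.71-fold), RAB27A (1.71-fold), RAB32 (1.67-fold), RAB40B, part of a ubiquitin ligase (1.67-fold), RAB12 (1.58-fold), RAB8A (1.50-fold) and RAB30 (1.47-fold). RAB8A and RAB30 were not called with the arrays numbered 1 left out (adjusted p = 0.0969 and 0.0528). The RAB27 pair thus stood in opposite directions between the lines, RAB27B higher and RAB27A lower in TPC-1.

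**Figure D5:**
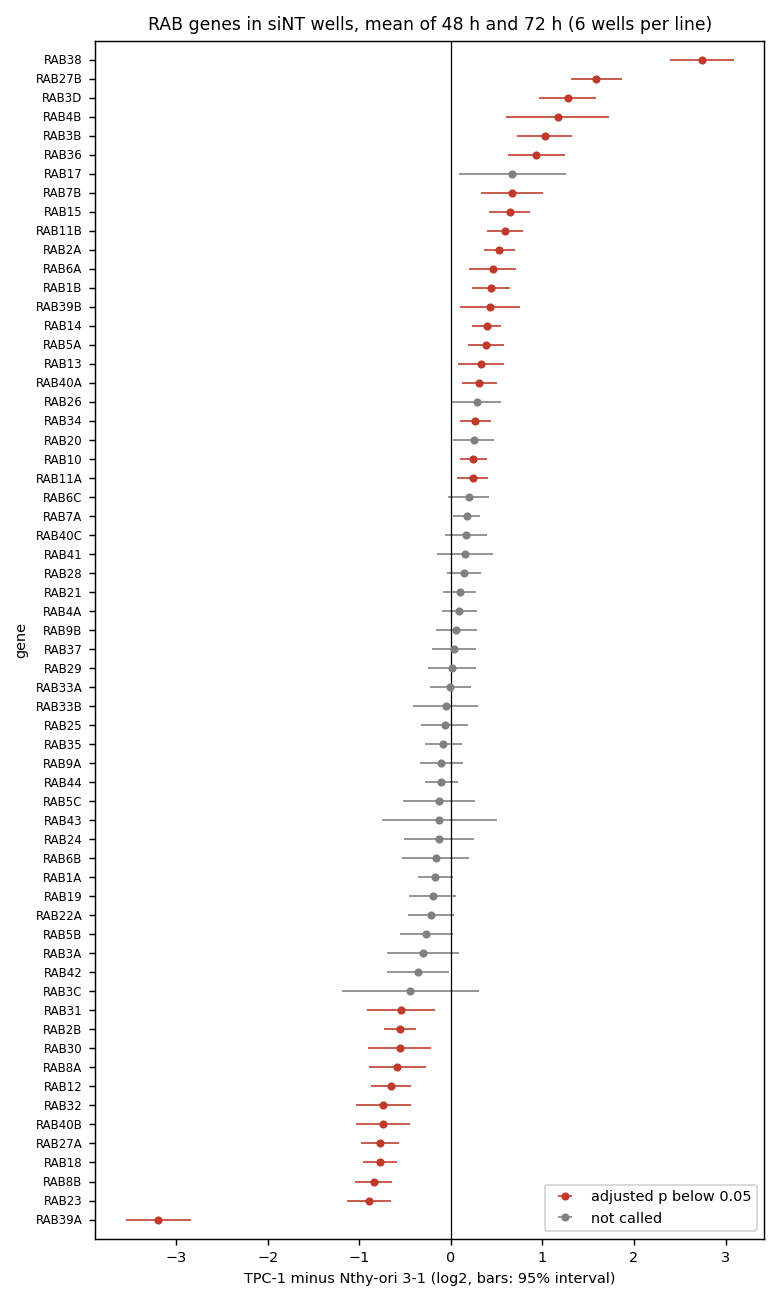
TPC-1 minus Nthy-ori 3-1 in siNT wells, as the log2 difference averaged over 48 h and 72 h (points, 6 wells per line) with 95% intervals (bars), for all 62 RAB genes in order. Red points passed an adjusted p of 0.05. RAB38 and RAB39A stand apart at the upper and lower ends.

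Between the times, 2 RAB genes were called in siNT wells of TPC-1. In TPC-1, RAB27A, which docks secretory vesicles, read 8.17, 8.54 and 8.34 at 48 h and 8.00, 7.55 and 7.54 at 72 h, a fall by 0.65 (adjusted p = 0.0237). RAB8B fell by 0.53, from the 48 h values given above to 9.10, 8.83 and 8.80 (adjusted p = 0.0463). They made up 3.23% of RAB genes against 2.1% of all genes, and both groups of wells were separate. The siNT wells at 72 h are also the control in which the RAB8B rise with siCOPZ1 was measured. The RAB27A call was lost without the siNT wells 2 (0.182) or 3 (0.0793) of 48 h or 2 (0.0607) or 3 (0.117) of 72 h. The RAB8B call was lost without wells 2 (0.304) or 3 (0.0656) of 48 h or 1 (0.0689), 2 (0.106) or 3 (0.162) of 72 h. In Nthy-ori 3-1, 8 RAB genes had an unadjusted p below 0.05 between the times, a threshold for which no share of all genes is given. None of these RAB genes and 0% of all genes were called.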

How the data were processed

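Gene expression of 24 wells was measured on Affymetrix whole-transcript arrays from biotin-labelled cDNA. The log2 values in the deposited table, 1 for each gene on each array (1.70 to 14.2), were made by the authors with RMA, per the submitters' processing notes. Not given in the sources used here are the array type, the probe sets, the software version and the build. Of 18637 lines, 28 with symbols turned into dates were kept under their Ensembl identifiers, and of 5 repeated symbols the line with the higher mean was kept, which left 18632 genes.

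A single linear model (limma 3.58.1, R 4.3.3) gave every group its own mean and used all arrays. For each of 11 two-sided contrasts the moderated p-values of all genes were adjusted together (Benjamini-Hochberg), and genes with an adjusted p below 0.05 are the called ones. The fit was tested on simulated data. The number of arrays limits the precision. RMA compresses changes of dim genes, and a shift shared by most genes is removed.

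RAB genes were taken by symbol, and all 62 matched the RefSeq gene table. They, their role groups and the lists of regulators were chosen with earlier results of these data known. Named with values are the RAB genes called in a comparison of siRNAs, lines or times (the 10 largest each way between lines), RAB1A, RAB1B, RAB2A, RAB6A, RAB18, RAB33B, RAB5A, RAB7A, RAB11A, RAB8A, RAB10 and RAB27A, and the 3 called genes of smallest adjusted p in each regulator list. Genes named outside this rule were chosen after their values were seen. One thyroid marker is not reported here.

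The labels number the wells of each group 1 to 3. Deviations from the group means of siCOPZ1 and siNT arrays of 1 number correlated at 0.404, 0.292 and 0.145 in TPC-1 at 48 h, where the numbers were taken to pair the arrays, and blocking on them left no RAB gene called there. Elsewhere at least 1 of the 3 correlations was below 0.1 (0.0722, 0.0279 and 0.0412).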

Additional observations from a re-analysis of the deposited data

Results flagged for a closer look

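The effect of siCOPZ1 on 4 RAB genes at 72 h differed between TPC-1 and Nthy-ori 3-1 by limma's test of the difference itself. It was lower in TPC-1 by 1.48 on the log2 scale for RAB19 (-1.48), by 1.31 for RAB3D (-1.31) and by 0.92 for RAB26 (-0.92), and higher by 1.50 for RAB42. The RAB42 and RAB3D calls were lost with the arrays numbered 1 left out (adjusted p = 0.143 and 0.0691), and the RAB26 call with most single wells left out.

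The effect in TPC-1 differed between 72 h and 48 h for RAB19 (-1.12) and RAB8B (0.79) by the same kind of test. Both calls were lost with the arrays numbered 1 left out (adjusted p = 0.0631 and 0.0726) and without some single wells, as given above. Medium changes together with line, and kind of siRNA with depletion.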

How the results depend on the processing

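Over 1610 recomputed values behind 104 differences of named genes, 1471 kept their direction and side of the threshold, 128 lost a call, 6 gained one, 5 moved and 0 reversed. Among the 104 are uncalled differences, such as all siCOPZ1 differences in Nthy-ori 3-1 and in TPC-1 at 48 h, which could not lose a call. The 128 lost calls thus fall on the called differences alone. Of 184 recomputed counts of called RAB genes, 27 lay more than 1.5 times from the count reported. The 16 RAB calls in TPC-1 at 72 h became 14 after median centring, 19 without dim genes, 19 with trended robust variances, 17 with array weights and 16 with repeated symbols kept, but 7 when only the 6 arrays of the comparison were fitted and 9 with the arrays numbered 1 left out. RAB19, RAB3D, RAB3B, RAB26 and RAB38 were called under every one of these settings and in all 6 runs without 1 well, which gave 10 to 14 calls. Without 1 well, calls ranged from 3 to 6 for the line difference of the 72 h effect (4 with all wells), from 0 to 7 for the time difference in TPC-1 (2), from 30 to 36 between the lines (32) and from 0 to 10 between the times in TPC-1 siNT wells (2). The line difference of the effect gave 8 calls with array weights and 1 with the arrays numbered 1 left out. The time difference gave 0 calls with only its arrays fitted, 4 without dim genes, 5 with array weights and 0 with the arrays numbered 1 left out. The time comparison in TPC-1 siNT wells gave 0 with only its arrays fitted. No RAB gene was called in Nthy-ori 3-1 or in TPC-1 at 48 h, or for the line difference at 48 h, under any setting run. The cause of these shifts was not tested. Fits to fewer arrays have fewer degrees of freedom, and their variances come from those arrays alone. For the time comparison in TPC-1 siNT wells, the SE of RAB27A was 0.143 in the main fit and 0.194 with only its arrays. For RAB8B it was 0.137 and 0.186. The main fit estimates the variance of each gene from both lines, and wells of Nthy-ori 3-1 varied less (median residual SD per gene 0.206, TPC-1 0.250). With the replicate number as a block, which the pairing check bears out only in TPC-1 at 48 h, there were 22 calls in TPC-1 at 72 h, 7 for the time difference, 6 between the times in TPC-1 siNT wells, 27 between the lines and 5 for the line difference.

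With 3 wells a group, effects near 0.4 on the log2 scale sat at the threshold in TPC-1, and their calls hung on single wells. Probes that relatives share, dim genes, the single pool of COPZ1 duplexes and the lack of protein data limit what the RAB values show.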

Other observations

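The 16 RAB genes called in TPC-1 at 72 h were set against differences measured on other arrays, as a description with no test. In siNT wells at 48 h, which the 72 h comparison does not use, the TPC-1 minus Nthy-ori 3-1 difference had the opposite sign to the siCOPZ1 effect in 13 of the 16 (81.2%), against 64.9% of all 2692 called genes. RAB3D, RAB3B, RAB7B and RAB15 were higher in TPC-1 and fell with siCOPZ1, and RAB8B, RAB18 and RAB2B were lower in TPC-1 and rose, while RAB38 was higher in TPC-1 and rose further. The siCOPZ1 effect in TPC-1 at 48 h had the sign of the 72 h effect in 11 of the 16 (68.8%), against 76.7% of all called genes. In Nthy-ori 3-1 the sign was the same in 6 of 16 at 48 h (37.5%, all called genes 49.7%) and in 9 of 16 at 72 h (56.2%, all called genes 61%).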
